A study of Mus musculus with 16 samples.

Results

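The 10 genes described here encode enzymes and a chaperone that modify and crosslink collagen: Lox, Loxl1, Loxl2, Loxl3 and Loxl4 of the lysyl oxidase family, Plod1 and Plod2 of the lysyl hydroxylases, P4ha1 and P4ha3 of the prolyl 4-hydroxylase alpha subunits, and Serpinh1, the collagen chaperone HSP47. They were chosen by name, with earlier results of these data known. They were measured by 18 spots of 62976 on the array and made up 10 of the 20863 genes that carried a name. All 10 passed the filter on dim signals, as did 20304 genes in all.

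Whole-lung total RNA of C57BL/6 mice aged 9 to 12 weeks was measured on single-colour Agilent arrays, 1 array per lung sample and 16 in all. A target site blocker is a short synthetic nucleic acid that pairs with a microRNA's binding site on 1 transcript and so keeps the microRNA off it; this one was designed for Cav1, the gene of the membrane coat protein caveolin-1. Every mouse received a blocker by the trachea on 3 days, of which 2 came before the injury (4 and 2 days ahead) and 1 followed it by 4 days. Some received the CAV1 blocker at 5 mg/kg and the others a control blocker, for which the labels give no dose. The injury was bleomycin at 1 unit/kg into the trachea, a chemotherapeutic drug used to produce lung fibrosis in mice, and the uninjured mice received phosphate-buffered saline (PBS) instead. The groups were PBS with the control blocker (2 arrays), PBS with the CAV1 blocker (2 arrays), bleomycin with the control blocker (6 arrays) and bleomycin with the CAV1 blocker (6 arrays). There was no group without any blocker, and the labels did not say in words that each sample was a separate animal, so the p-values describe variation among samples that may in part be technical. The number of arrays limits the precision, most of all in the PBS groups.

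Collagen chains are modified in the endoplasmic reticulum before they leave the cell. Prolyl 4-hydroxylases hydroxylate prolines, which stabilises the triple helix, lysyl hydroxylases hydroxylate lysines that later take part in crosslinks and carry sugars, and HSP47 binds the folded triple helix until it is exported. Outside the cell, lysyl oxidases convert lysines and hydroxylysines of collagen and elastin into aldehydes that join neighbouring chains into insoluble fibres. In fibrotic lung these crosslinks make the matrix stiffer and slower to degrade.

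Promoter sequences are shown for P4ha3, the gene with the only spot of the set that passed the test between the blockers after bleomycin, and for Loxl4, which passed the test for bleomycin averaged over both blockers but under neither blocker alone. They are the stretches upstream of the annotated gene in RefSeq's mouse assembly GRCm38.p6, read 5′ to 3′ on the gene's own strand, with GC boxes (GGGCGG or CCGCCC, searched on both strands, overlaps allowed) in capitals. P4ha3 lies on the plus strand and its stretch is chr7:100285270-100285488. Loxl4 lies on the minus strand and its stretch is chr19:42612807-42613056.
P4ha3: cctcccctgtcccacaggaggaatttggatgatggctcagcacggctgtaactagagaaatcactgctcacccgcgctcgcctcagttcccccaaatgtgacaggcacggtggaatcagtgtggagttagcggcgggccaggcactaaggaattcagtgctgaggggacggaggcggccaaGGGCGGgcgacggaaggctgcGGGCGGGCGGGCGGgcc
Loxl4: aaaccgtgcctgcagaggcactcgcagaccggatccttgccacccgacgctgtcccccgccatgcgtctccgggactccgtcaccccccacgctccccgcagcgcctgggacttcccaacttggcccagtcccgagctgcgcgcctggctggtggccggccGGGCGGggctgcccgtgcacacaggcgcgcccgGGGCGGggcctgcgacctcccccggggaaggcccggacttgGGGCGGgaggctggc

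The P4ha3 stretch is 219 bases long with 64.4% G and C, and its 4 GC boxes all lie toward its 3′ end, some of them overlapping. Of 32851 RefSeq promoters, 28.3% held at least 1 GC box in a stretch of that length. The Loxl4 stretch is 250 bases long with 76.0% G and C and held 3 GC boxes, against 32.7% of promoters that held at least 1 in that length. Neither stretch held the core of the hypoxia response element (ACGTG on either strand), which 14.4% and 16.6% of promoters held in these lengths, nor an AP-1 site (TGANTCA) or a TATA box (TATAAA on either strand). The Loxl4 stretch held 1 match to the SMAD element (CAGAC on either strand), which 42.2% of promoters held. These are matches of letters and say nothing of binding.

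The arrays differed in ways the groups did not explain. The second PBS array with the control blocker and the sixth bleomycin array with the CAV1 blocker had the lowest median correlations with the other arrays over all spots (0.980 and 0.987), and correlated with each other at 0.991. Skeletal muscle and squamous epithelium genes split the arrays into 5 with low and 11 with high levels (mean log2 signals of 7.31 to 8.60 against 10.34 to 12.76 for the 12 muscle genes, and of 6.83 to 7.18 against 10.05 to 10.94 for the 11 squamous genes). Both PBS arrays with the CAV1 blocker were among the 5 low arrays and both PBS arrays with the control blocker among the 11 high ones, so this split and the blocker cannot be told apart in the PBS lungs. Lung epithelium markers, such as the surfactant gene Sftpc, were high in every array (mean log2 signal 15.31 to 15.70). The means of 13 fibroblast markers lay between 11.64 and 11.91 in all 16 arrays, and those of 9 cartilage markers between 6.10 and 6.41.

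Bleomycin raised Lox, the founding lysyl oxidase, in lungs that had received the control blocker, and no other of the 10 genes passed the test there. Lox lay at log2 signals of 7.79 and 7.57 in the 2 PBS arrays, and at 8.21, 8.38 and 8.50 (lowest, median and highest) in the 6 bleomycin arrays, so the groups did not overlap. The difference was 0.69 on the log2 scale (SE 0.119, 95% confidence interval 0.44 to 0.95), a 1.62-fold rise, with an adjusted p of 0.0166 by limma. That is 1 of 10 genes called higher, against 1.96% of all genes tested, and 0 of 10 called lower, against 0.448%. Whole-lung RNA cannot tell fewer or more cells of a type from less or more RNA per cell.

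When each of the 16 arrays was left out in turn, the Lox call was lost without 1 of them. Without the second PBS array with the control blocker, the array that stood apart above, the difference was 0.58. That left 1 PBS array with the control blocker, so only the size is given. Without the bleomycin arrays whose RNA integrity number was 10 (the other arrays had 9) the Lox difference was 0.66, with an adjusted p of 0.0756 by limma. That fit called 15 of 20304 genes in all, against 489 in the main fit. With the muscle genes' mean as a covariate the Lox difference was 0.71 (adjusted p 0.0361), and with that of the squamous genes 0.69 (adjusted p 0.0268). A second spot for Lox gave 0.35 (adjusted p 0.167 over spots by limma).

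**Figure D1:**
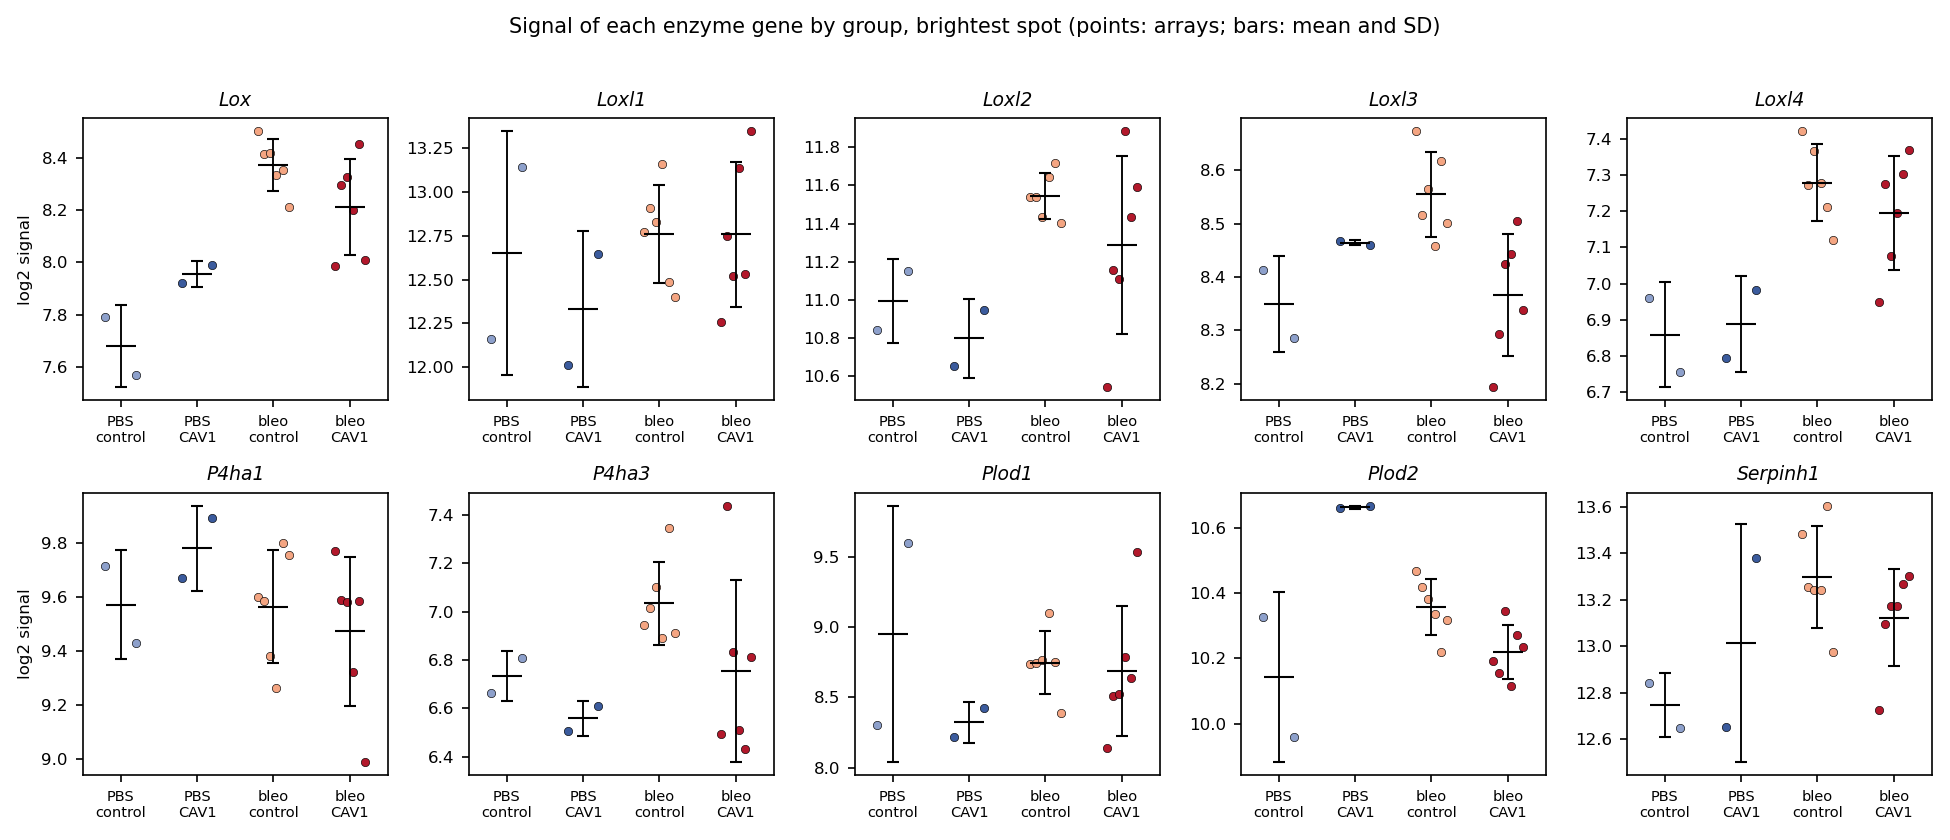
Log2 signal of the brightest spot of each of the 10 genes, one panel per gene with its own vertical axis, in PBS and bleomycin (bleo) lungs with the control or the CAV1 blocker. Points are arrays (2, 2, 6 and 6), horizontal bars are group means and vertical bars are SDs. All 6 control-blocker bleomycin arrays lie above both control-blocker PBS arrays for Lox, and both CAV1-blocker PBS arrays are the highest 2 of 16 for Plod2.

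Among the other lysyl oxidases under the control blocker, Loxl2, Loxl3 and Loxl4 had higher values after bleomycin in every array, while Loxl1 overlapped. Loxl2, which oxidises collagen IV and fibrillar collagens, lay at 10.84 and 11.15 in PBS lungs and at 11.40, 11.54 and 11.72 after bleomycin. Its difference was 0.55 (SE 0.241, adjusted p 0.280 by limma). No PBS array reached the lowest bleomycin array, but the fit's error for Loxl2 was large.

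Loxl4 lay at 6.96 and 6.75 in PBS lungs and at 7.12, 7.28 and 7.42 after bleomycin, a difference of 0.42 (SE 0.114, adjusted p 0.0691 by limma). Loxl3 lay at 8.41 and 8.29 against 8.46, 8.54 and 8.67, a difference of 0.21 with an adjusted p of 0.269. Both pairs of groups were separate, by a narrow gap in Loxl3. Loxl1, the oxidase needed for elastic fibre renewal, differed by 0.11 (adjusted p 0.889), and its PBS arrays at 12.16 and 13.14 enclosed 5 of the 6 bleomycin arrays.

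Of the intracellular enzymes and the chaperone gene Serpinh1, none passed the test under the control blocker. Serpinh1 lay at 12.84 and 12.65 in PBS lungs and at 12.97, 13.25 and 13.60 after bleomycin, a difference of 0.55 (SE 0.189, 95% confidence interval 0.15 to 0.96, adjusted p 0.154 by limma). P4ha3 differed by 0.30 at its brightest spot (adjusted p 0.50) and P4ha1, the widely expressed alpha subunit, by −0.0076 (adjusted p 0.988). Plod2, the lysyl hydroxylase that acts on the collagen telopeptides, differed by 0.21 (adjusted p 0.296), and Plod1, which acts on the helical part, by −0.20 (adjusted p 0.786).

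Groups did not overlap, with bleomycin higher, for 6 of the 10 genes (Lox, Loxl2, Loxl3, Loxl4, P4ha3 and Serpinh1), against 8.55% of all genes. At an unadjusted p under 0.05, 6 of 10 were higher (Lox, Loxl2, Loxl3, Loxl4, Plod2 and Serpinh1), against 10.5% of all genes, and none was lower, against 5.41%. The median difference of the 10 genes was 0.26, beside 0.03 for all genes.

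**Figure D2:**
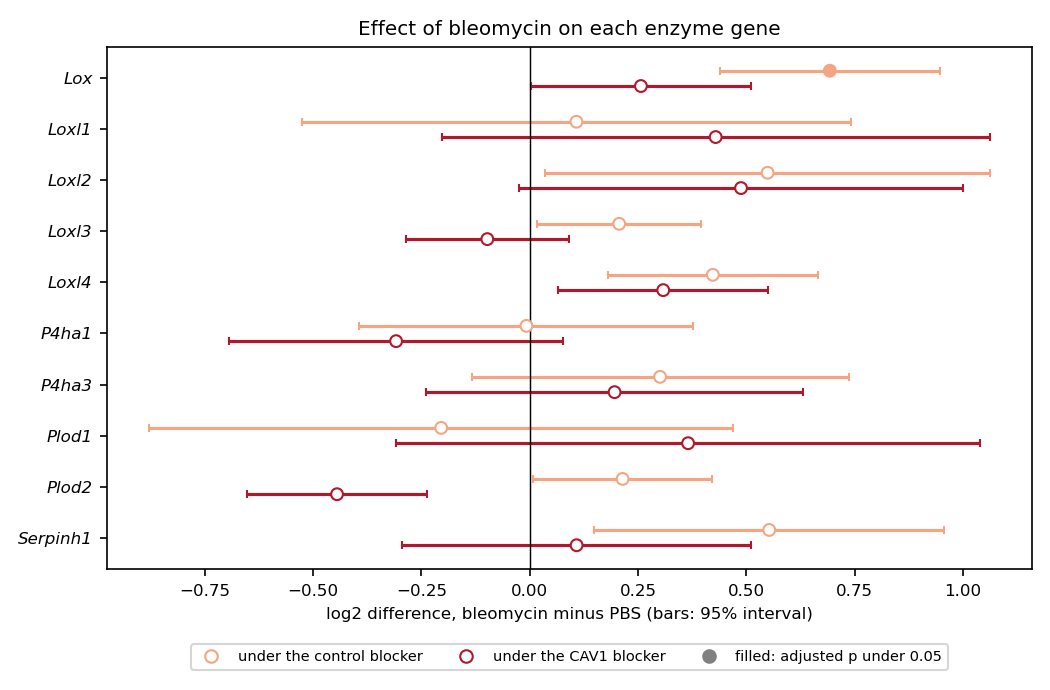
Log2 difference of bleomycin minus PBS for the brightest spot of each gene, under the control blocker (light) and under the CAV1 blocker (dark), with 95% confidence intervals from limma. The filled point is the single difference with an adjusted p under 0.05, that of Lox under the control blocker (0.69); the 2 values for Plod2 lie on opposite sides of 0.

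Under the CAV1 blocker, no gene of the set passed the test for bleomycin (0 of 10 by limma, against 0.345% of all genes called higher and 0.172% called lower). At an unadjusted p under 0.05, 2 of 10 were higher (Lox and Loxl4), against 7.15% of all genes, and 1 of 10 was lower (Plod2), against 7.67%. Lox lay at 7.92 and 7.99 in PBS lungs and at 7.98, 8.25 and 8.45 after bleomycin, and its difference was 0.26 (adjusted p 0.330). Loxl4 lay at 6.79 and 6.98 against 6.95, 7.24 and 7.37, a difference of 0.31 (adjusted p 0.213). In both genes the first bleomycin array (7.98 for Lox and 6.95 for Loxl4) lay below the higher PBS array, and the other 5 lay above it.

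The remaining differences under the CAV1 blocker were 0.49 for Loxl2 (adjusted p 0.361 by limma), 0.43 for Loxl1 (0.541), −0.10 for Loxl3 (0.656), 0.37 for Plod1 (0.639), −0.31 for P4ha1 (0.457), 0.20 for P4ha3 (0.705) and 0.11 for Serpinh1 (0.835). The Serpinh1 value rested on PBS arrays at 12.65 and 13.38. Without the first of them it was −0.25, and without the second 0.47. The 10 genes had a median difference of 0.23, beside −0.0057 for all genes.

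Averaged over both blockers, bleomycin raised Lox and Loxl4. The averaged difference was 0.47 for Lox (SE 0.084, 1.39-fold, adjusted p 0.00441 by limma) and 0.37 for Loxl4 (SE 0.081, 1.29-fold, adjusted p 0.0141). That is 2 of 10 genes called higher, against 4.25% of all genes, and 0 of 10 lower, against 1.68%. Loxl2 had the largest averaged difference, 0.52, with an adjusted p of 0.0965. Serpinh1 followed Lox and Loxl4 with 0.33 (adjusted p 0.197), and P4ha1 (−0.16) and Plod2 (−0.12) were the only genes with negative values.

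The averaged Lox call held in 29 of 30 alternatives. It was lost only with a block for the labels' replicate number (0.48, adjusted p 0.175 by limma). Loxl4 and Loxl2 crossed the threshold when single arrays were left out. Loxl4 missed it without the second PBS array with the control blocker (0.31) and without the first PBS array with the CAV1 blocker (0.32). Each of these fits left 1 array in a PBS group, so only the sizes are given. The second spot of Loxl4 gave 0.31 and passed (adjusted p 0.0106 over spots by limma). That of Lox gave 0.31 and did not pass (adjusted p 0.0535). The second spot of P4ha3 (0.46, adjusted p 0.00275) and the third of Loxl2 (0.47, adjusted p 0.0291) were also called higher. Of all spots, 4.14% were called higher there. At its brightest spot Loxl2 passed without the first bleomycin array with the CAV1 blocker (0.59, adjusted p 0.00875 by limma). In that array this spot had its lowest value of all 16 arrays.

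The differences of Plod2 with bleomycin had opposite signs under the blockers, 0.21 under the control blocker and −0.44 under the CAV1 blocker, and no test of it passed the threshold. It lay at 10.33 and 9.96 in PBS lungs with the control blocker, at 10.66 and 10.67 in PBS lungs with the CAV1 blocker, at 10.22, 10.36 and 10.47 after bleomycin with the control blocker, and at 10.12, 10.21 and 10.35 after bleomycin with the CAV1 blocker. The PBS arrays with the CAV1 blocker were thus the highest 2 of 16, and all 6 bleomycin arrays with that blocker lay below them. The difference with bleomycin under the CAV1 blocker was −0.44 (SE 0.097, 95% confidence interval −0.65 to −0.24, adjusted p 0.0525 by limma), 1 of 10 genes whose groups did not overlap downward, against 12.3% of all genes. It is the gene of the set that came nearest to the threshold in that comparison, and it passed in 7 of 31 other settings. Array weights, 1 of these settings, called 2712 of 20304 genes there, against 105 in the main fit. Some of the others left 1 PBS array with the control blocker.

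In PBS lungs the CAV1 blocker stood 0.52 above the control blocker for Plod2 (SE 0.119, adjusted p 0.0889 by limma), a 1.44-fold difference. No gene of the set was called in that comparison (0 of 10, against 0.276% of all genes higher and 0.0345% lower, with 1 of 10 higher at an unadjusted p under 0.05, against 8.26%). The difference between the 2 bleomycin effects, the interaction, was −0.66 for Plod2 (SE 0.138, 95% confidence interval −0.95 to −0.37, unadjusted p 2.34e-04, adjusted p 0.497). By limma 0 of 20304 genes passed for the interaction, while 1873 (9.22%) had an unadjusted p under 0.05. All 3 comparisons use the same PBS arrays with the CAV1 blocker.

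The values of Plod2 depended on which PBS array with the control blocker was kept. Without the first of them, the difference with bleomycin under the control blocker was 0.40, and without the second 0.03, so its size there rests on the second array. Without the first, the interaction was −0.84 and the blocker difference in PBS lungs 0.71. Without the second, they were −0.47 and 0.34. Each of these fits left 1 PBS array with the control blocker, so only the sizes are given. Both PBS arrays with the CAV1 blocker were also among the 5 with low muscle and squamous genes, and the part of that split in the value for Plod2 was not tested beyond a covariate. With the muscle genes as a covariate, the interaction was −0.66 (adjusted p 0.891 by limma) and the blocker difference in PBS lungs 0.52 (adjusted p 0.511). With the squamous genes they were −0.60 (adjusted p 0.996) and 0.47 (adjusted p 0.657). Of the other 3 arrays with low muscle genes, the third bleomycin array with the CAV1 blocker (10.35) was the highest of its group in Plod2, while the second and sixth bleomycin arrays with the control blocker (10.42 and 10.32) were not.

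In the other genes the interaction passed for none either. Lox had −0.44 (unadjusted p 0.0204) and Loxl3 −0.30 (unadjusted p 0.0281), both with an adjusted p of 0.497 by limma. In all, 3 of 10 genes (Lox, Loxl3 and Plod2) were lower at an unadjusted p under 0.05, against 6.01% of all genes. The Lox rise under the control blocker and its smaller value under the CAV1 blocker are therefore not shown to differ.

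After bleomycin, no gene of the set passed the test between the blockers when each was represented by its brightest spot (0 of 10 by limma, against 1.2% of all genes called higher and 0.414% called lower, and 1 of 10, Loxl3, lower at an unadjusted p under 0.05, against 4.6%). All 10 differences were below 0, with a median of −0.15 beside −0.01 for all genes, but that of Loxl1 was −0.0002. A test of each gene by itself, the two-sided exact permutation test over all 924 assignments of the 12 arrays, cannot give a p below 0.00216. Of the 10 brightest spots it gave 2 under 0.05 before any adjustment, both lower with the CAV1 blocker, against 5.85% of all genes that were lower at that threshold.

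Those 2 were Loxl3 and Plod2. Loxl3 lay at 8.46, 8.54 and 8.67 with the control blocker and at 8.19, 8.38 and 8.50 with the CAV1 blocker, and 5 of the 6 CAV1-blocker arrays lay below every control-blocker array. The difference was −0.19 (SE 0.063, adjusted p 0.238 by limma; exact permutation p 0.00649). For Plod2 it was −0.14 (adjusted p 0.616 by limma; exact permutation p 0.0260), with 3 of 6 arrays below every control-blocker array.

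For the others the intervals leave room for differences in either direction. Lox differed by −0.16 (95% confidence interval −0.34 to 0.02, adjusted p 0.651 by limma), Loxl2 by −0.26 (−0.62 to 0.10), Serpinh1 by −0.18 (−0.46 to 0.11), P4ha1 by −0.09, Loxl4 by −0.08 and Plod1 by −0.06. Without the first bleomycin array with the CAV1 blocker the difference was −0.11 for Loxl2, −0.10 for Serpinh1 and 0.05 for Plod1.

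That first array was low in several of these genes and in other lists. It held the lowest values of all 16 arrays in Loxl2 (10.54), Loxl3 (8.19) and Plod1 (8.14). Its mean over 8 macrophage genes was 10.45, against 11.31 to 11.65 in the other 5 arrays of its group, 11.63 to 11.87 in bleomycin lungs with the control blocker and 10.20 to 10.68 in PBS lungs. Its mean over the 11 collagen and elastin substrate genes was 10.61, against 11.20 to 11.61 in the rest of its group, and over the 15 genes of fibre assembly 12.11, against 12.42 to 12.58. Over the 23 partner genes tested, described further on, it was 10.89, against 10.95 to 11.07.

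P4ha3, an alpha subunit of prolyl 4-hydroxylase, was lower with the CAV1 blocker after bleomycin at 1 of its 2 spots. At its second spot P4ha3 lay at 6.16 and 6.32 in PBS lungs with the control blocker and at 5.92 and 6.11 in those with the CAV1 blocker. After bleomycin it lay at 6.70, 6.94 and 7.05 with the control blocker (mean 6.93 ± 0.12, SD, n = 6) and at 6.09, 6.26 and 6.41 with the CAV1 blocker (6.25 ± 0.11, n = 6). The bleomycin arrays with the control blocker were above all 10 other arrays, and those with the CAV1 blocker lay within or just above the range of the PBS lungs.

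With the control blocker the second spot rose with bleomycin by 0.69 (SE 0.102, 1.61-fold, adjusted p 0.00713 over 30638 spots by limma). In that comparison 3 of the 18 spots were called higher, against 1.95% of all spots, and the others were the brightest of Lox and the third of Loxl2. With the CAV1 blocker it was 0.24 above PBS (adjusted p 0.301). After bleomycin it was lower with the CAV1 blocker by −0.68 (SE 0.0724, 95% confidence interval −0.83 to −0.52, 37.5% lower on the linear scale, adjusted p 7.61e-05). Its exact permutation p was 0.00216, the smallest the design allows. The spot was lower in 36 of 36 pairs of arrays, as were 0.712% of all spots. It was the only 1 of the 18 spots called in that comparison, against 0.392% of all spots called lower and 1.48% higher. The difference and the rise share the control-blocker bleomycin arrays, and the interaction at this spot was −0.45 (unadjusted p 0.00705, adjusted p 0.508 by limma).

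**Figure D3:**
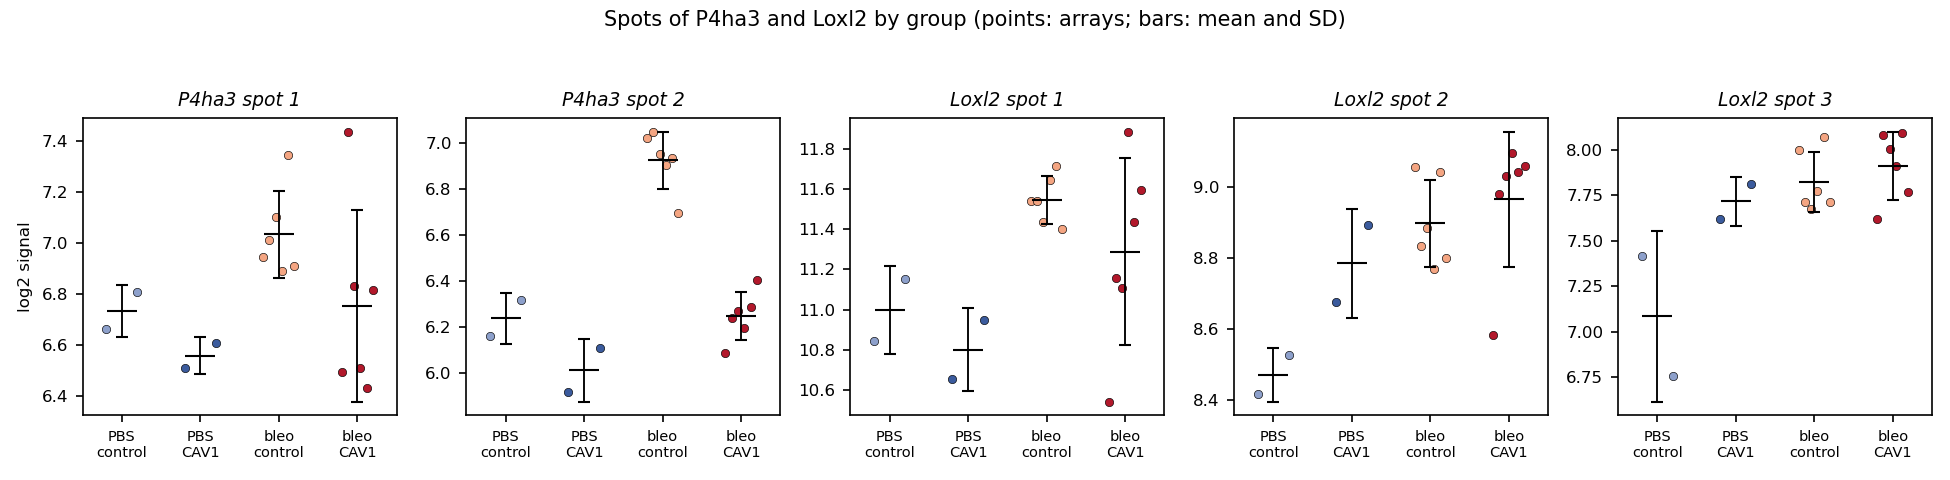
Log2 signal of each spot of P4ha3 (2 spots) and Loxl2 (3 spots) in the 4 groups, one panel per spot with its own vertical axis; points are arrays, bars are group means and SDs. At P4ha3 spot 2 the 6 CAV1-blocker bleomycin arrays (6.09 to 6.41) all lie below the 6 control-blocker ones (6.70 to 7.05), while at spot 1 one array at 7.44 lies above them all.

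At the brightest spot, P4ha3 lay at 6.66 and 6.81 in PBS lungs with the control blocker and at 6.51 and 6.61 in those with the CAV1 blocker. After bleomycin it lay at 6.94, 7.01, 7.10, 6.89, 7.35 and 6.91 with the control blocker and at 6.49, 7.44, 6.83, 6.51, 6.43 and 6.81 with the CAV1 blocker. So 5 of the 6 CAV1-blocker arrays lay below every control-blocker array, and the second, at 7.44, lay above them all. The difference was −0.28 (SE 0.144, adjusted p 0.638 by limma; exact permutation p 0.123), and without that array −0.42 (adjusted p 0.0654).

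The mean of both spots differed by −0.48 (adjusted p 0.00908 by limma when genes were represented by the mean of their spots; exact permutation p 0.00433). Both P4ha3 spots were dim: the median over all spots of an array was 6.51 to 6.52, and the second P4ha3 spot lay under it in every array but the control-blocker bleomycin ones. The sequences of the spots were not used here, so which transcript each measures was not tested. The second spot was called lower in 28 of 28 other settings, with differences from −0.73 to −0.65. With the muscle genes as a covariate the difference was −0.68 (adjusted p 1.95e-04 by limma over spots), and without the first bleomycin array with the CAV1 blocker −0.65 (adjusted p 2.54e-04). The macrophage means given above were lower with the CAV1 blocker as well (10.45 to 11.65 against 11.63 to 11.87). Of the 8 genes 1 was called, Ms4a7 (−1.05, adjusted p 0.0236 by limma), against 0.414% of all genes called lower. The part of the macrophage genes in the P4ha3 difference was not tested.

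**Figure D4:**
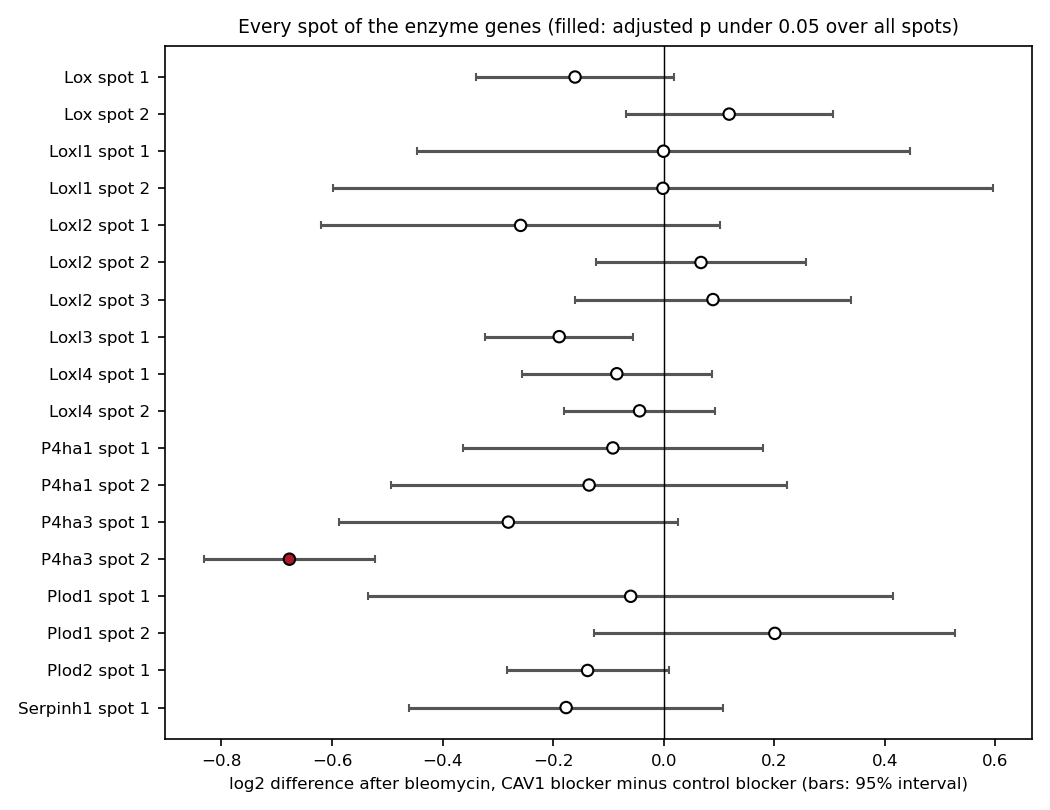
Log2 difference between the CAV1 blocker and the control blocker after bleomycin for each of the 18 spots, with 95% confidence intervals from limma. The filled point, P4ha3 spot 2 at −0.68, is the only one with an adjusted p under 0.05 over all spots; 14 spots lie below 0 and 4 above.

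For Loxl2 and Lox the spots differed in sign between the blockers after bleomycin. Loxl2 had −0.26 at its brightest spot, 0.07 at the second and 0.09 at the third, and Lox had −0.16 and 0.12. None of these passed the test. The spots that lay above 0 were 4 of 18: the second of Lox, the second and the third of Loxl2 and the second of Plod1. The direction of all 10 brightest spots was thus not that of all spots.

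For bleomycin under the control blocker the 3 spots of Loxl2 had the same sign, with 0.55 at the brightest (SE 0.240, adjusted p 0.283 over spots by limma), 0.43 at the second (SE 0.126, adjusted p 0.0976) and 0.74 at the third (SE 0.166, adjusted p 0.0347). The third spot rose, but its PBS arrays with the control blocker lay apart, at 6.75 and 7.42, while those with the CAV1 blocker lay at 7.62 and 7.81, next to the lowest bleomycin arrays (7.67 and 7.62 with either blocker). Across the 16 arrays the brightest spot and the third of Loxl2 correlated at 0.36, the brightest and the second at 0.66, and the second and the third at 0.80. The 2 spots correlated at 0.94 for Loxl1, 0.89 for P4ha1, 0.84 for Plod1, 0.72 for Loxl4, 0.70 for Lox and 0.61 for P4ha3. These are descriptions over arrays that share groups.

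Plod1, Loxl1 and P4ha1 varied widely within groups. The second PBS array with the control blocker and the sixth bleomycin array with the CAV1 blocker were the highest 2 of 16 for Plod1 (9.60 and 9.53, against 8.14 to 9.10 in the others). For Loxl1 they had ranks 3 and 1 of 16 from the top (13.14 and 13.35). For P4ha1 the sixth bleomycin array with the CAV1 blocker was the lowest of all (8.99), and the second PBS array with the control blocker had rank 12 of 16 from the top (9.43).

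The effect on the comparisons was large for these genes. Without the second PBS array with the control blocker, the Plod1 difference with bleomycin went from −0.20 to 0.44 and that of Loxl1 from 0.11 to 0.60. Without the first, they were −0.85 and −0.38. No direction can be given for Plod1 or Loxl1 under the control blocker.

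Of the partner genes of collagen modification fixed as a list of 24, 23 were named on the array and all 23 were tested. Under the control blocker 2 rose with bleomycin (1.96% of all genes did) and none fell (0.448% did). They were Bmp1 (0.85, adjusted p 0.0166 by limma), the protease that removes the C-propeptide of procollagen and also activates pro-lysyl oxidase, and Adamts2 (0.80, adjusted p 0.0438), the protease that removes the N-propeptide. Averaged over both blockers the same 2 rose, and Pcolce2 (−0.54, adjusted p 0.00741), an enhancer of the C-proteinase, and Colgalt2 (−0.43, adjusted p 0.00964), a collagen galactosyltransferase, fell. Of all genes, 4.25% rose and 1.68% fell there. The median of the list was 0.0095 under the control blocker, close to 0.03 for all genes.

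After bleomycin 1 partner differed between the blockers, P3h2, a prolyl 3-hydroxylase, which was lower with the CAV1 blocker (−0.33, SE 0.0704, adjusted p 0.0209 by limma). Of all genes, 0.414% were called lower there. P4ha2, the remaining alpha subunit of prolyl 4-hydroxylase, differed by 0.05 there and by 0.06 with bleomycin under the control blocker. Plod3, the remaining lysyl hydroxylase, differed by 0.02 and −0.14. These 2 were picked to complete the families and passed no test.

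The substrates of these enzymes had a larger median difference than the 10 genes of the set. Of 11 collagen and elastin genes, 5 rose with bleomycin under the control blocker, against 1.96% of all genes. Among them were Col1a1 (1.20, adjusted p 0.0226 by limma) and Col1a2 (0.90, adjusted p 0.0187), the chains of collagen I, and Col5a3 (1.20, adjusted p 0.0237). The median was 0.90 for the substrates and 0.26 for the 10 genes of the set. Between the blockers after bleomycin none of the 11 was called, with a median of −0.35 and the lowest adjusted p, 0.112, in Col5a2 (−0.70). All 11 differences were below 0. At an unadjusted p under 0.05, 5 of the 11 were lower with the CAV1 blocker, against 4.6% of all genes.

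Of 15 genes of fibril and elastic fibre assembly, 5 rose under the control blocker and none fell, against 1.96% and 0.448% of all genes. The risen genes included Fn1 (1.38, adjusted p 0.0199 by limma), fibronectin, and Fbln5 (0.62, adjusted p 0.0259), a fibulin that binds lysyl oxidases on elastic fibres. Of 16 hypoxia response genes, a group that is known to be induced together with Lox, Plod2 and P4ha1 at low oxygen, none was called in either bleomycin comparison or between the blockers after bleomycin, with a median of −0.02 under the control blocker. At an unadjusted p under 0.05, 4 of the 16 were higher, against 10.5% of all genes, and 3 were lower, against 5.41%. Of 13 fibroblast markers, Vim rose (0.45, adjusted p 0.0288) and Inmt fell (−0.90, adjusted p 0.0258) under the control blocker, against the same shares of all genes. Of 8 macrophage genes 4 rose there, among them Ms4a7 (2.22, adjusted p 0.00710), against 1.96% of all genes. Under the control blocker the means of the 7 adipocyte genes were 10.00 to 11.20 after bleomycin and 11.55 to 11.94 in PBS lungs. Under the CAV1 blocker they overlapped, at 10.00 to 11.51 and 11.20 to 11.83. None was called under either blocker. At an unadjusted p under 0.05, 5 of the 7 were lower under the control blocker, against 5.41% of all genes. Under the CAV1 blocker 0 were, against 7.67%.

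Genes whose levels ran most like those of 4 genes of the set over the 16 arrays were taken as the 3 with the highest Pearson correlation, as a description. For Lox they were Pcbd1 (0.94), Lama2 (0.94), a laminin chain, and Pmepa1 (0.94), a target and inhibitor of TGF-beta signalling. For Loxl2 they were Mfap5 (0.94), a microfibril protein, Itgb5 (0.93), an integrin chain, and Unc5b (0.92), a netrin receptor. For Serpinh1 they were Hsp90b1 (0.89), a chaperone of the endoplasmic reticulum, Slc39a1 (0.89), a zinc transporter, and Col5a1 (0.88), a chain of collagen V. For Plod2 they were Azi2 (0.88), Dclre1c (0.87) and Zranb2 (0.86).

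Within the 12 bleomycin arrays alone these correlations were 0.93, 0.81 and 0.80 for the genes of Lox, 0.98, 0.92 and 0.92 for those of Loxl2, and 0.79, 0.83 and 0.92 for those of Serpinh1, in the order given. For those of Plod2 they were 0.60, 0.70 and 0.47. The arrays share groups, and the Plod2 values rest more than the others on the PBS lungs.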

How the data were processed

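Total RNA (0.2 µg per array, per the labels) of 16 mouse lung samples was hybridised to single-colour Agilent arrays. The authors deposited log2 intensities that were made with limma, per the submitters' processing notes; its version, the background correction and the scan dates are not given in the sources used here. The values were used as deposited: array medians were 6.51 to 6.52 and each maximum was 18.28. No detection marks were used. Of 62976 spots, 31465 carried 1 gene symbol and 31511 none in the annotation used here, and RefSeq accessions (GRCm38.p6) gave 29050 of these a current symbol, which differed for 2933; the other 2415 kept the annotation's symbol.

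The spot with the highest mean stood for each gene and its other spots were tested separately over 30638 spots. Genes above the 25th percentile of an array in at least 2 arrays were tested (20304). A model with 4 group means was fitted over the 16 arrays in limma 3.58.1 (R 4.3.3; lmFit, then eBayes, with 12 residual degrees of freedom). Tests are two-sided, p-values were adjusted by Benjamini and Hochberg's method over every gene (or spot) tested, and a call needs an adjusted p under 0.05. The script was tested on simulated data. The 6 vs 6 comparison also used an exact permutation test (scipy 1.17.1). Alternatives covered the filter, spot choice, normalization, moderation, weights, covariates, block and left-out arrays.

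The 10 genes and the other lists were chosen with earlier results of these data known. All members and spots are named; from each other list up to 4 called genes with the smallest p in a comparison, or up to 3 where none passed. For Lox, Loxl2, Plod2 and Serpinh1 the 3 most alike genes are named. P4ha2 and Plod3 were named after their values were seen.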

Additional observations from a re-analysis of the deposited data

Results flagged for a closer look

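Among 36 sets of 6 bleomycin arrays (18 spots under each blocker), 2 held a sample far from the others by Dixon's criterion, where chance gives about 1 in 20. Both were the first bleomycin array with the CAV1 blocker. Loxl2 at its second spot lay at 8.58 there, while the other 5 arrays lay between 8.98 and 9.10, and the gap was 0.779 of the range against a critical value of 0.625. Serpinh1 lay at 12.72 there and at 13.09 to 13.30 in the others, with a gap of 0.639 of the range.

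For Plod2 the differences with bleomycin had opposite signs under the blockers, 0.21 under the control blocker and −0.44 under the CAV1 blocker. The first was 0.03 without the second PBS array with the control blocker. Every bleomycin array with the control blocker lay above the mean of its PBS arrays, and every one with the CAV1 blocker lay below the mean of its PBS arrays. The difference between these effects was −0.66, with an adjusted p of 0.497 by limma.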

How the results depend on the processing

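No called value reversed its direction under any alternative run. Of 184 alternatives for the counts of genes called, 161 stayed within 1.5 times the count reported and 23 did not. Under the control blocker, the count with bleomycin (1) was 0 with array weights and 0 with a replicate block (the labels' replicate number). It was also 0 without the arrays with an RNA integrity number of 10. Over all genes these settings called 0, 1 and 15 of 20304, against 489 in the main fit. The loss of the Lox call there was thus not particular to Lox, whose difference was 0.73, 0.70 and 0.66. A setting chosen after seeing the data left out the second PBS array with the control blocker and the sixth bleomycin array with the CAV1 blocker. It left 1 PBS array with the control blocker, so only the Lox difference is given, 0.58. With 1 bleomycin array left out Lox stayed called. Without the first bleomycin array with the CAV1 blocker, Loxl4 was called as well (0.42, adjusted p 0.0367 by limma). That fit called 692 of 20304 genes under the control blocker, against 489 in the main fit. Under the CAV1 blocker, the count (0) was 3 with array weights, a setting that called 2712 of 20304 genes, against 105 in the main fit. It was 1 with a 50th percentile filter (164 of 15392 genes) and 1 with the mean of a gene's spots (127 of 20205 genes). With 1 bleomycin array left out it was 0 to 1. Averaged over both blockers, the count (2) was 1 with array weights, 4 with the mean of spots and 0 with the replicate block. Over all genes these settings called 367, 1251 and 9, against 1204 in the main fit. The count was 3 without the first bleomycin array with the CAV1 blocker, and it also moved with single PBS arrays left out, as given above. The CAV1 blocker after bleomycin (0) had 1 with the mean of spots, P4ha3, and 0 to 0 with 1 array left out. After PBS (0) and for the interaction (0), genes were called only in a fit that left 1 PBS array with the control blocker. Lox under the control blocker was called in 26 of 31 alternatives (0.52 to 0.80); with the replicate block it was 0.70 (adjusted p 0.258 by limma) and with array weights 0.73. Same-numbered arrays of different groups correlated from −0.69 to 0.44 in their deviations from group means, with 6 of 16 pairs over 0.1. Deviations in the PBS groups of 2 arrays mirror each other, and 3 of 6 bleomycin pairs were over 0.1. Whether same-numbered arrays were paired cannot be decided from these values. The P4ha3 second spot under the control blocker missed the threshold with array weights (0.73) and the replicate block (0.70, adjusted p 0.247 by limma). Over genes those settings called 0 and 1 of 20304. The spot was called in 26 of 28 alternatives chosen after seeing the data. The causes were not tested. The precision is limited by 2 arrays in each PBS group, and dim spots such as those of P4ha3 are limited by their signal over background, which was not used here.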
